A study of Mus musculus with 22 samples.

Results

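The 10 genes described here encode the core of antigen presentation by major histocompatibility complex (MHC) class I in the mouse. They are the heavy chains H2-K1 and H2-D1, the light chain B2m, the peptide transporter Tap1 and Tap2, the loading factor Tapbp, the inducible proteasome subunits Psmb8, Psmb9 and Psmb10, and the transactivator Nlrc5. They were taken by name as a pathway and are 10 of the 46882 genes listed. RNA was measured in 16 libraries with QuantSeq, which reads transcripts near their 3′ end. MC38, a colon carcinoma line of C57BL/6 origin (2 libraries, labelled day 0), was injected under the skin of female mice 8 to 12 weeks old. Hosts were wild-type C57BL/6N mice, with tumors of day 23 and day 46, or mice of the strain B6.129S7-Rag1tm1Mom/J labelled RAG1-/-, with tumors of day 13 and day 23, 3 libraries per group. Rag1-/- mice make no mature T or B cells because antigen receptor genes are not rearranged. Skin of wild-type C57BL/6N mice (2 libraries, labelled day 23) was the normal tissue. WT tumors and RAG1 tumors below mean the libraries carrying those labels.

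Libraries held 5589151 to 26134241 reads on genes. All 10 genes passed the filter on low values in every fit, with 25 to 157857 reads each per library. The 6 libraries labelled RAG1-/- held 1 to 12 Rag1 reads each, against 0 or 1 in each of the other 10, which goes against a simple reading of the label. Where these 3′ reads lie relative to the altered part of the gene was not analysed here, so Rag1 checks nothing. Cd3e, of the T cell receptor complex, had 0 reads in all 6 and 3.91 to 23.2 normalized counts in WT tumors, and Igkc, the antibody light chain constant region, was at 0 to 1.77 against 50.7 to 287. Other markers of these cells differed in whether they separated the hosts. In limma, WT over RAG1 tumors, Cd3d had a log2 fold change of 3.97 (adjusted p = 0.011) and Cd8a of 4.55 (adjusted p = 0.000583). Cd4, at 0.41 (adjusted p = 0.882), and Cd79b, at 0.12 (adjusted p = 0.956), did not pass. Cd79b was also higher in RAG1 tumors than in MC38 (3.43, adjusted p = 0.00175). The source label calls the tumors tumor cells, but all 5 leukocyte markers had reads in every tumor. The colon epithelial markers Cdx2 and Krt20 had 0 reads in MC38, and the 5 colon markers together reached only 4.28 to 6.84 normalized counts there.

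Class I molecules carry short peptides from inside the cell to its surface, where CD8 T cells read them. The proteasome cuts proteins into peptides, and interferon exchanges its catalytic subunits for PSMB8, PSMB9 and PSMB10. The TAP1 and TAP2 transporter moves the peptides into the endoplasmic reticulum, where tapasin, the product of Tapbp, helps to load them onto a heavy chain bound to B2M. NLRC5 has no DNA-binding domain of its own and acts at class I promoters through factors bound to conserved boxes there.

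Of the 10 genes, 7 lie in the MHC on chromosome 17 (GRCm38): Tapbp at 33915899 to 33929292, H2-K1 at 33996017 to 34000347, Psmb9 at 34181987 to 34187764, Tap1 at 34187553 to 34197225, Psmb8 at 34197721 to 34201454, Tap2 at 34203527 to 34216321 and H2-D1 at 35262730 to 35267499. B2m is on chromosome 2 (122147686 to 122153083), and Nlrc5 (94434356 to 94527272) and Psmb10 (105935735 to 105938444) are on chromosome 8. In the last 500 annotated exonic bases of each gene, where most 3′ reads would fall, 0% were shared with another gene's exons. Over all exonic bases, exons on the opposite strand covered 24.9% of Tapbp, 18.5% of Tap2 and 14.7% of Psmb8. In any other member they covered at most 5.79%. Of the 50-base windows in the last 500 bases of the longest coding transcript, 9.53% in H2-D1 and 0.443% in H2-K1 also occurred in transcripts of other genes, each including the other, and 0% in the other 8 genes. H2-D1 therefore carries some uncertainty from reads that match several places.

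The promoters of H2-K1 and B2m, a heavy chain and its light chain, are shown because they hold boxes of the kind through which class I genes are known to be controlled. Each run is the 250 bases before the RefSeq start in GRCm38.p6, on the gene's own strand, at chr17:34000348-34000597 (minus) for H2-K1 and chr2:122147437-122147686 (plus) for B2m. Capitals mark letters that match 1 of 5 motifs on either strand, searched after the sequences were seen.
H2-K1: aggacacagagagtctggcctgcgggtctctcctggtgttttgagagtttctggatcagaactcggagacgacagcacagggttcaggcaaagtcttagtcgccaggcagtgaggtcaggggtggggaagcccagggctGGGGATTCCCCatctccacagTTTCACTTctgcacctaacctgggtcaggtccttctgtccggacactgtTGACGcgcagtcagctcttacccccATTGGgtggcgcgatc
B2m: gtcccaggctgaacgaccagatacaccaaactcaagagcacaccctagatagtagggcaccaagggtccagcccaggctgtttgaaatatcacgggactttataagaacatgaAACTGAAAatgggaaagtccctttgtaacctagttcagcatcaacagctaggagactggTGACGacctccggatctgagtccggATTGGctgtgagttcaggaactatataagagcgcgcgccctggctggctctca
Read from the left, the capitals in H2-K1 are a κB-like stretch (GGGA, any 3 bases, then CCC, with overlapping matches), an interferon regulatory factor core (AANNGAAA, on the other strand), a cyclic AMP response half-site (TGACG) and a CCAAT box on the other strand. In B2m they are the interferon regulatory factor core, TGACG and the CCAAT box on the other strand.

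RefSeq windows matched 8 of the 10 genes, all but Tap2 and Nlrc5. CCAAT was found in 6 of the 8 (33.8% of all 32536 promoter windows of this length hold it), TGACG in 5 (17.9%), AANNGAAA in 3 (21.3%), the κB-like motif in 2 (4.81%) and the GAS-like motif TTCNNNGAA in 1 (7.04%), Psmb8. Tap1 and Psmb9 are transcribed away from each other, and their windows share 225 bases at chr17:34187331-34187555, so their CCAAT and TGACG matches are the same letters. The H2-K1 and H2-D1 windows were 87.9% identical over 190 aligned bases. The windows of H2-D1, Tap1, Tapbp, Psmb8 and Psmb9 lie wholly inside exons that GENCODE annotates for some transcript, so they are not all upstream sequence. A match is a run of letters and shows no binding.

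**Figure D1:**
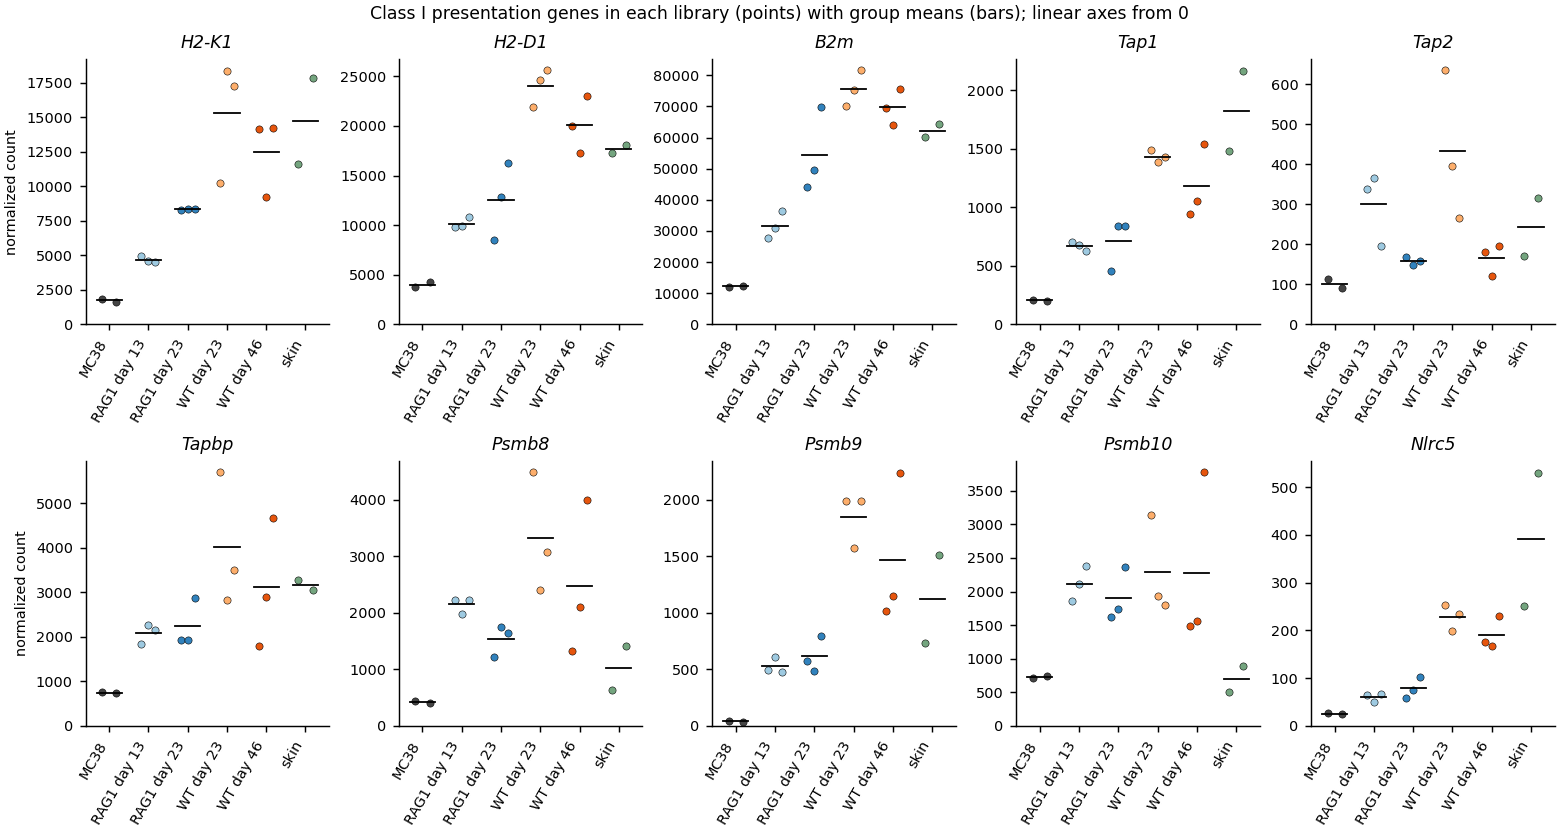
Normalized count (y axis, linear from 0) of each gene in every library (points) with group means (bars), for MC38 cells, RAG1 tumors, WT tumors and skin (x axis). MC38 is the lowest group for 9 genes, skin for Psmb10, and every tumor library lies above both MC38 libraries in all 10 panels.

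MC38 cells in culture were low in most of the 10 genes compared with skin, the tissue at the site of injection. Of the 10 genes, 8 were lower in MC38 than in skin and 0 were higher, where 41.2% of the 16780 genes tested were lower. The median log2 fold change was -2.24 for the 10 genes and -0.40 for all genes tested. In 9 of them both MC38 libraries lay below both skin libraries, which held for 51.4% of all genes, so the count alone is read against a high background. Here and below, a gene is called when its adjusted p in limma is under 0.05, and fold changes are on the log2(normalized count + 1) scale.

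The deepest difference was in Psmb9, with 47.1 and 32.3 normalized counts in MC38 against 735 and 1513 in skin (log2 fold change -4.72 ± 0.42 (SE), adjusted p = 0.000746). Nlrc5 stood at 26.5 and 24.4 in MC38 and at 252 and 530.3 in skin (-3.79 ± 0.42, adjusted p = 0.00143). In both genes the groups do not overlap. H2-K1 was at 1815 and 1651 in MC38 and at 11606 and 17819 in skin, which puts MC38 at 11.8% of the skin mean. Tap1 reached 11.2% of the skin mean, B2m 19.6%, H2-D1 22.7% and Tapbp 23.6%.

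Tap2, Psmb8 and Psmb10 stood nearer to skin. Tap2 was lower in MC38 (-1.19 ± 0.36, adjusted p = 0.0372), a call lost without any 1 of the 4 libraries (adjusted p 0.0655 to 0.152). It was also lost after rescaling to the total or upper quartile (0.133 and 0.0963), without the trend (0.0631) or the filter (0.0517) and with a pseudocount of 0.1 (0.0532). Psmb8 just missed the threshold at -1.16 ± 0.40 (adjusted p = 0.0536) and passed it in edgeR and DESeq2. Psmb10 was at 720.4 and 751 in MC38 and at 512 and 891 in skin, with overlapping values (0.12 ± 0.29, adjusted p = 0.735). Rescaling the libraries to an equal upper quartile or total moved the median of all genes from -0.40 to -0.08 or 0.01, and the members' median to -1.93 or -1.83. The split of all genes into higher and lower was 3482 to 6920, and 4629 to 6017 or 4972 to 5759 after rescaling. Skin is a mixed tissue whose 5 leukocyte markers summed to 4212 and 6114 normalized counts, against 0.978 and 4.28 in MC38. Its 5 keratinocyte markers summed to 303456 and 306449. The part of either cell type in these differences was not tested.

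In tumors, all 10 genes were higher than in MC38 cells, in both hosts. In WT tumors 10 of 10 were called higher, against 18.3% of the 14708 genes tested, and the median log2 fold change was 2.61 (0.05 over all genes). In RAG1 tumors 10 of 10 were also called higher, against 15.8%, with a median of 1.62 (0.06 over all genes). Every tumor library lay above both MC38 libraries for each of the 10 genes, which held for 21.7% of all genes in WT tumors and 21.2% in RAG1 tumors. Both comparisons share the 2 MC38 libraries and are not independent of each other.

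**Figure D2:**
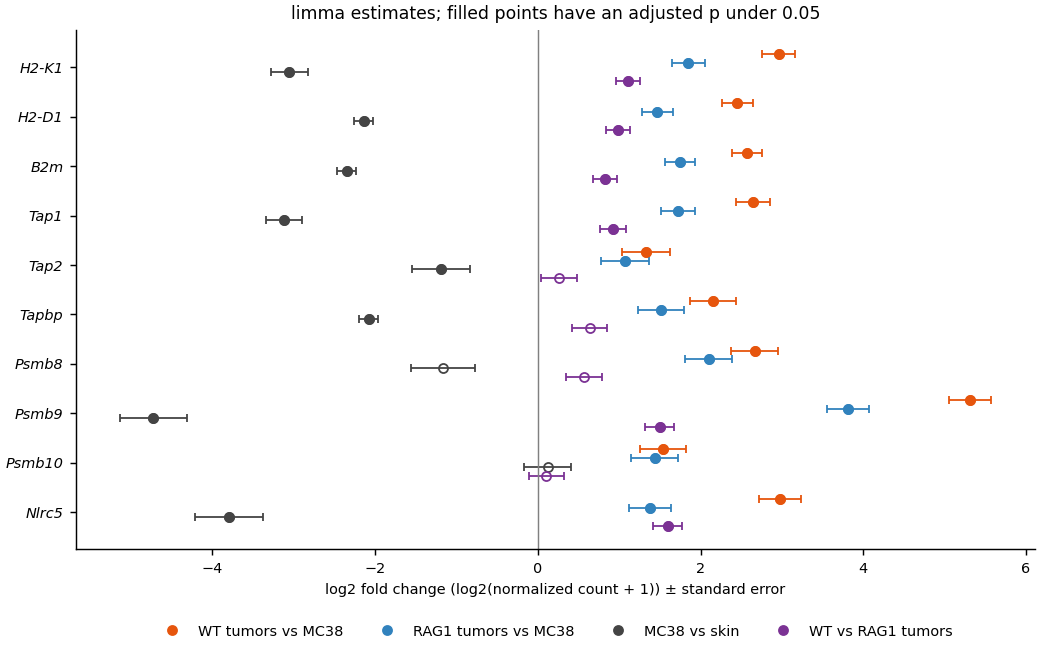
Log2 fold change ± standard error (x axis) of the 10 genes (y axis) in 4 comparisons, with filled points for an adjusted p under 0.05. WT tumors (orange) and RAG1 tumors (blue) lie right of 0 for every gene, and the WT point is the higher of the pair in each.

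The heavy and light chains rose several-fold. H2-K1, which encodes the H-2K heavy chain, was at 4927, 4568 and 4516 normalized counts in RAG1 tumors of day 13, at 8311, 8349.6 and 8385 in RAG1 tumors of day 23, at 10210.2, 18381 and 17295 in WT tumors of day 23 and at 14121, 9214 and 14207 in WT tumors of day 46. These are 3.76 times the MC38 mean in RAG1 tumors (log2 fold change 1.85 ± 0.20, adjusted p = 1.29e-06) and 8.02 times in WT tumors (2.96 ± 0.20, adjusted p = 1.87e-09). For H2-K1 the groups MC38, RAG1 day 13, RAG1 day 23 and WT day 46 follow each other without overlap, while WT day 46, skin and WT day 23 overlap.

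B2m, the light chain shared by all class I molecules, was at 12150.5 and 12242 in MC38. It reached 27619, 31023 and 36312 in RAG1 tumors of day 13 and 44033, 49519 and 69753 at day 23. In WT tumors it lay at 70068, 75287 and 81701 at day 23 and at 69606, 63953 and 75605 at day 46. Over both days together, the highest value in WT tumors was 1.28 times the lowest. In RAG1 tumors this ratio was 2.53, with all libraries of day 23 above all of day 13. H2-D1, the H-2D heavy chain, rose to 2.83 times the MC38 mean in RAG1 tumors and 5.50 times in WT tumors (adjusted p = 1.34e-05 and 1.48e-08).

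The transporter and loading genes rose less evenly. Tap1 had 207 and 202 normalized counts in MC38, 458 to 845 in RAG1 tumors and 946 to 1544 in WT tumors (log2 fold changes 1.72 ± 0.21 and 2.65 ± 0.21). Tap2, the other chain of the transporter, rose least in both hosts, by 1.07 ± 0.30 in RAG1 tumors (adjusted p = 0.0139) and 1.33 ± 0.30 in WT tumors (adjusted p = 0.00255). Both Tap2 calls rest on 2 MC38 libraries: without MC38 replicate 2 the adjusted p was 0.186 in RAG1 and 0.0646 in WT tumors, and without replicate 1 it was 0.0583 in RAG1 tumors. Tapbp was at 762 and 733 in MC38, at 1840 to 2883 in RAG1 tumors and at 1796 to 5710.3 in WT tumors.

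Among the inducible proteasome subunits Psmb9 had the largest fold change of the 10 genes in both hosts. Its median was 533 normalized counts in RAG1 tumors (475 to 796) and 1779 in WT tumors (1012 to 2233), against 47.1 and 32.3 in MC38. The log2 fold changes were 3.82 ± 0.26 (adjusted p = 1.99e-09) and 5.31 ± 0.26 (adjusted p = 1.84e-11). Psmb8 rose to 4.38 times the MC38 mean in RAG1 tumors and 6.87 times in WT tumors. Psmb10 rose to similar ratios in both, 2.74 and 3.11. Nlrc5, which drives class I transcription, rose to 2.74 times in RAG1 tumors and 8.24 times in WT tumors (adjusted p = 0.000629 and 6.33e-08).

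MC38 cultures hold only the tumor line, whereas the tumors hold host cells, so the presence of host cells and a change within the tumor cells cannot be told apart in these bulk samples, nor can fewer cells of a type and less RNA per cell. The 5 leukocyte markers summed to 4092 to 6621 normalized counts in RAG1 tumors and to 5263 to 7595 in WT tumors, with 5 of 5 called higher than in MC38 in both. In MC38 3 of the 5 had no read. The 5 macrophage markers summed to 35.9 and 48.9 in MC38, to 6043 to 10349 in RAG1 tumors and to 8034 to 14783 in WT tumors. Their part in the rise of the 10 genes was not tested.

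**Figure D3:**
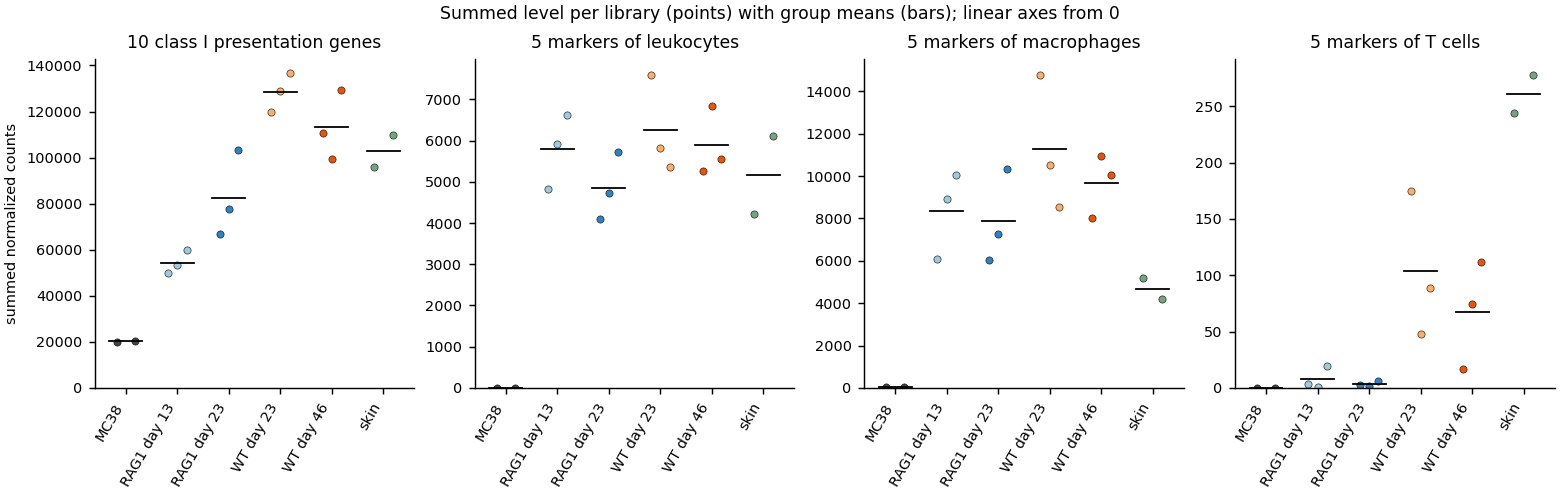
Summed normalized counts (y axes, linear from 0) of the 10 genes and of 5 markers each of leukocytes, macrophages and T cells in every library (points) with group means (bars). Leukocyte and macrophage sums overlap between RAG1 and WT tumors, and so do T cell sums, at 1.11 to 19.1 in RAG1 tumors and 16.6 to 175 in WT tumors, by 1 library on each side.

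Between the hosts, 6 of the 10 genes were higher in WT than in RAG1 tumors and 0 were lower. Over all 14746 genes tested, 0.57% were higher. The 6 genes were Nlrc5 (log2 fold change 1.60 ± 0.18, adjusted p = 0.000514), Psmb9 (1.496 ± 0.18, 0.000583), H2-K1 (1.11 ± 0.15, 0.00206), H2-D1 (0.98 ± 0.14, 0.00431), Tap1 (0.92 ± 0.16, 0.0115) and B2m (0.82 ± 0.15, 0.0124). The median over the 10 was 0.87 and over all genes 0.01. The count of 6 was the same with any 1 of the 12 tumors left out, while B2m missed the threshold without the filter on low values (adjusted p = 0.0721) and Tap1 without the trend in the spread (0.0860).

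In 5 genes, all 6 WT libraries lay above all 6 RAG1 libraries, which held for 0.651% of all genes. Nlrc5 was at 64.2, 51.1 and 66.7 normalized counts in RAG1 tumors of day 13 and at 58.9, 74.5 and 103 at day 23. In WT tumors it was at 253, 199 and 235 at day 23 and at 177, 167 and 230.4 at day 46. The lowest WT library thus stood well above the highest RAG1 library. Psmb9 was at 497, 606 and 475 in RAG1 tumors of day 13 and at 569, 487 and 796 at day 23, against 1988, 1570.2 and 1987 in WT tumors of day 23 and 1012, 1145 and 2233 at day 46. H2-K1, H2-D1 and Tap1 were separated too, and B2m was not, since the third RAG1 tumor of day 23, at 69753, lay above 2 WT tumors of day 46.

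Tapbp, Psmb8, Tap2 and Psmb10 did not pass the test between the hosts. Tapbp stood at 0.64 ± 0.21 (adjusted p = 0.241), Psmb8 at 0.57 ± 0.22 (adjusted p = 0.320), Tap2 at 0.26 ± 0.22 (adjusted p = 0.701) and Psmb10 at 0.10 ± 0.21 (adjusted p = 0.900). The sign of Psmb10 turned without the first WT tumor of day 23 (-0.02) or the third of day 46 (-0.11). These 4 genes were the ones that spread most among WT tumors. The highest WT value of Tap2 was 5.28 times the lowest, that of Psmb8 3.41 times, that of Tapbp 3.18 times and that of Psmb10 2.55 times, against 1.28 to 2.21 times in the 6 genes that were called. The first WT tumor of day 23 was the highest in Tap2, Tapbp and Psmb8, and the third of day 46 was the highest in Psmb10. In Tap2 the spread includes a difference between days, since all WT libraries of day 46 lay below those of day 23. The fit takes the days as separate groups, and whether this spread bears on the host test was not tested.

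T cell markers differed between the hosts, a difference that the RAG1-/- label sets in advance. The 5 markers summed to 1.11 to 19.1 normalized counts in RAG1 tumors and 16.6 to 175 in WT tumors, with the third RAG1 tumor of day 13 above the first WT tumor of day 46. Of the 4 tested, 3 were called higher in WT tumors, among them Cd8a, at 0 to 0.442 in RAG1 and 5.86 to 79.7 in WT tumors (adjusted p = 0.000583). Cd4 was not called (0.41 ± 0.72, adjusted p = 0.882). Cd3d and Cd3e were at 0 in MC38, as were the other 3 T cell markers. Ifng, which encodes interferon gamma, had 2 to 31 reads in each WT tumor and 0 to 4 in each RAG1 tumor, and did not pass the test (log2 fold change 2.23). None of the 5 leukocyte markers and none of the 5 macrophage markers was called between the hosts, with medians of 0.15 and 0.36. By unadjusted p under 0.05, 1 of the 5 and 3 of the 5 passed. The part of these cells in the difference was not tested.

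Day 23 is the only day sampled in both hosts. There Psmb9 (1.60 ± 0.26, adjusted p = 0.0198) and Nlrc5 (1.56 ± 0.26, adjusted p = 0.0227) were called higher in WT tumors, 2 of the 10 genes against 0.231% of all genes. All 3 WT libraries lay above all 3 RAG1 libraries in 8 genes, all but Tapbp and Psmb10, which held for 8.5% of all genes. Tap2 had a larger difference there, 1.36 ± 0.31, than over both days, and did not pass (adjusted p = 0.0851). H2-K1 and B2m had smaller ones, 0.83 ± 0.21 against 1.11 and 0.50 ± 0.21 against 0.82. Neither was called at day 23 (adjusted p = 0.128 and 0.380). Nlrc5 was slightly smaller and the remaining members were larger. The RAG1 mean over both days includes day 13, when no WT tumor was sampled. With 3 libraries a side the 2 calls depended on single libraries. Of the 10 genes, 0 were called without replicate 1 or 2 of the RAG1 tumors or replicate 1 or 3 of the WT tumors. Both calls held without replicate 3 of the RAG1 tumors or replicate 2 of the WT tumors. DESeq2 called 7 of the 10 higher, and 1.07% of all genes.

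Within each host, 0 of the 10 genes were called between the days by limma. In WT tumors all 10 had lower means on the log scale at day 46 than at day 23, with log2 fold changes from -1.32 to -0.11. Tap2 had the largest, from 635, 395.5 and 266 normalized counts at day 23 to 181, 120.2 and 195 at day 46 (-1.32 ± 0.31, adjusted p = 0.385). It was the 1 member with an unadjusted p under 0.05 and the 1 member whose libraries did not overlap in this direction (5.44% of all genes), and DESeq2 called it (adjusted p = 0.0128), as it did 0.109% of all genes in this direction. Over all genes limma called 0% in either direction between WT days (1261 at an unadjusted p under 0.05).

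In RAG1 tumors, 2 members were higher at day 23 than at day 13 without overlap (9.48% of all genes) and 2 lower (9.92%). The higher ones were H2-K1 (0.84 ± 0.21, adjusted p = 0.176) and B2m (0.76 ± 0.21, adjusted p = 0.208). The lower ones were Tap2, from 337, 366 and 196 to 168, 149 and 158 normalized counts (-0.87 ± 0.31, adjusted p = 0.291), and Psmb8 (-0.49 ± 0.31, adjusted p = 0.562). H2-K1, B2m and Tap2 had unadjusted p-values under 0.05, and DESeq2 called H2-K1 and B2m higher, as it did 0.61% of all genes. Here too limma called 0% of all genes (1722 at an unadjusted p under 0.05). The difference between the changes over time in the 2 hosts was called for 0 members and 0% of genes, with 2 members at an unadjusted p under 0.05 and 0 members called by edgeR or DESeq2. The days differ between hosts, so time and host are only partly separable.

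Against skin, WT tumors differed in 3 of the 10 genes, and in neither direction did the count exceed the share over all genes. Psmb10 (1.66 ± 0.33, adjusted p = 0.000597) and Psmb8 (1.501 ± 0.36, adjusted p = 0.00256) were higher, where 22.8% of 16259 genes were higher, and Nlrc5 was lower (-0.81 ± 0.29, adjusted p = 0.0286), where 34.2% were lower. Psmb8 lost its call without skin replicate 1 (adjusted p = 0.130) and Nlrc5 without skin replicate 2 (adjusted p = 0.501), WT day 23 replicate 2 (0.0533) or WT day 46 replicate 2 (0.0518). Nlrc5 also lost it when libraries were rescaled to an equal upper quartile or total (adjusted p = 0.156 and 0.270), which turned the split of all genes from 3708 higher and 5554 lower to 5081 and 4505 or 5502 and 4173. H2-K1 stood at -0.09, Tap2 at 0.14 and Tapbp at 0.07, none of them called, and H2-K1 turned positive after rescaling.

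Each inducible subunit replaces 1 constitutive catalytic subunit in the proteasome, and the ratio of the 2 in a library does not depend on its size factor. Psmb9 over Psmb6 was 0.0136 and 0.00791 in MC38, 0.145 to 0.242 in RAG1 tumors and 0.345 to 0.682 in WT tumors, with no overlap between the hosts. The log2 ratio was 1.57 higher in WT than in RAG1 tumors (two-sided exact permutation test, n = 6 and 6, p = 0.00216, the smallest this design gives, adjusted p = 0.0260 over 12 ratio comparisons). Constitutive Psmb6 itself did not pass between hosts (-0.08 ± 0.09, adjusted p = 0.811).

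Psmb8 over Psmb5 was 0.858 and 0.787 in MC38, 2.18 to 5.73 in RAG1 tumors and 2.95 to 11.6 in WT tumors, with overlap between the hosts (log2 difference 0.76, exact permutation p = 0.0736). Psmb10 over Psmb7 was 0.461 and 0.347 in MC38, 0.719 to 1.06 in RAG1 tumors and 0.721 to 2.19 in WT tumors (log2 difference 0.20, exact permutation p = 0.498). Against MC38 all 3 ratios were higher in every tumor, but 6 tumors against 2 libraries cannot go below an exact permutation p of 0.0714. Between MC38 and skin 2 libraries a side cannot go below 0.333.

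**Figure D4:**
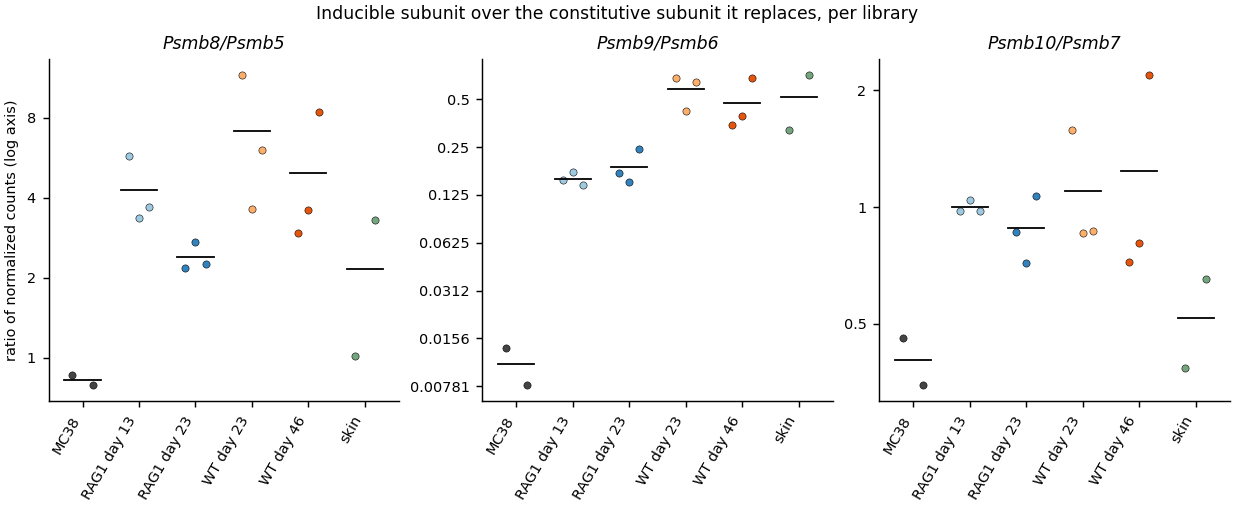
Ratio of the normalized counts of each inducible subunit to its constitutive counterpart (y axis, log scale) in every library (points) with group means (bars). Psmb9 over Psmb6 separates MC38, RAG1 tumors and WT tumors, whereas the other 2 ratios overlap between the hosts.

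Other genes of the pathway were compared by the same test. Against MC38, 18.3% of all genes were higher in WT tumors and 15.8% in RAG1 tumors. Of 7 genes for peptide trimming and the loading complex, 2 were higher in tumors than in MC38 in each host and 0 lower. These were Erap1, which trims peptides in the endoplasmic reticulum (1.19 ± 0.20 in RAG1 and 1.29 ± 0.20 in WT tumors), and Tapbpl, which edits peptides outside the loading complex (1.09 ± 0.21 and 1.88 ± 0.21). The chaperones Calr, Canx and Pdia3 stood between -0.36 and -0.01 and did not pass. Between the hosts Tapbpl alone of the 7 was higher in WT tumors (0.79 ± 0.15, adjusted p = 0.0204), while Erap1 stood at 0.11 ± 0.14 (adjusted p = 0.835). Against skin, MC38 was higher in Calr and Canx (0.51 ± 0.11 and 0.94 ± 0.12) and lower in Tapbpl (-2.51 ± 0.34). In that comparison 20.8% of all genes were higher and 41.2% lower.

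Of 6 other proteasome genes, the activator subunits Psme1 and Psme2 were higher in tumors in both hosts, Psme1 by 1.68 ± 0.28 in RAG1 and 1.96 ± 0.28 in WT tumors. The constitutive catalytic subunits Psmb5, Psmb6 and Psmb7 and the assembly factor Pomp did not pass, and 0 of the 6 differed between hosts (1 at an unadjusted p under 0.05). Against skin, MC38 was higher in Psmb6 (0.76 ± 0.14) and lower in Psme1, Psme2 and Pomp. Of 5 transcription factors of class I genes, 3 were higher in WT tumors than in MC38 (Irf1, Irf2 and Rfx5) and 1 in RAG1 tumors (Irf1). Over all genes 18.3% and 15.8% were higher, so the count in RAG1 tumors is near the share over all genes. Irf1, an interferon regulatory factor, was at 447 and 417 normalized counts in MC38, 746 to 1191 in RAG1 tumors and 1091 to 2516 in WT tumors. The hosts overlap in Irf1 and the difference did not pass over both days (0.63 ± 0.15, adjusted p = 0.0663), whereas at day 23 Irf1 was higher in WT tumors (1.07 ± 0.21, adjusted p = 0.0438). By limma 0 of the 5 factors differed between the hosts over both days, with 2 at an unadjusted p under 0.05.

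**Figure D5:**
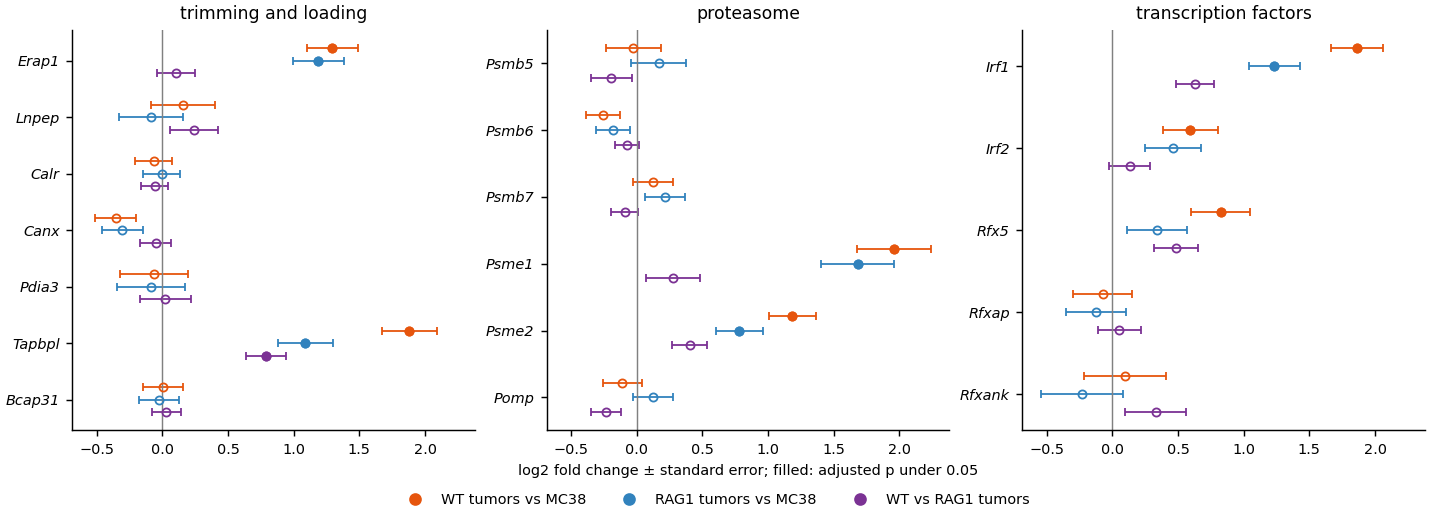
Log2 fold change ± standard error (x axis) of 18 other pathway genes (y axis) in tumors of each host against MC38 and between the hosts, with filled points for an adjusted p under 0.05. Tapbpl is filled in all 3 comparisons, and the constitutive subunits lie between -0.26 and 0.22.

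Over the 12 tumors, the genes whose levels followed the mean standardized level of the 10 members most closely were Igtp (Pearson r = 0.969), AW112010 (0.969), H2-Eb1 (0.955), Cadm1 (0.948) and Cd8a (0.943). These r describe 12 libraries that fall into 2 hosts and share a depth scale, and they carry no test. Igtp encodes an interferon-inducible GTPase, H2-Eb1 an MHC class II chain of antigen-presenting cells and Cd8a a T cell co-receptor. Igtp was at 42.1 normalized counts in MC38 (mean of 2), 360 ± 95.4 (SD, n = 6) in RAG1 tumors and 1299 ± 687 in WT tumors. H2-Eb1 had 0 reads in MC38, 994 ± 328 in RAG1 tumors and 3220 ± 1653 in WT tumors. Among the members themselves r with that mean ran from 0.417 in Tap2 and 0.559 in Psmb10 to 0.954 in Tap1 and 0.965 in Psmb9. Each member is part of that mean, which raises its r, so these values cannot be set beside those of the other genes.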

How the data were processed

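RNA was measured in 16 libraries. The authors made QuantSeq 3′ libraries from total RNA, sequenced them on an Ion Proton, trimmed with Cutadapt and Trimmomatic, aligned to mm10 with STAR and then Bowtie2, kept primary alignments, removed ribosomal RNA and counted with HTSeq. The deposited signal is the normalized count per gene, that is, reads over a DESeq2 size factor. Versions, annotation and strand setting are not given in the sources used here, so antisense overlaps cannot be separated. In all libraries 100% of values were whole multiples of 1 read (within 0.01), so reads were recovered for count tests. A floor of 3 reads equals 1.33 to 6.38 normalized counts and covers counting error only. Columns without a sample numbered 0 in this table. A second deposited table, with 6 columns whose names match no label, was not used here.

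Testing used limma 3.58.1 (R 4.3.3) with its trend option on log2 values after adding 1. Genes averaging under 5 normalized counts across the fitted libraries were dropped. Tests were two-sided, Benjamini-Hochberg adjusted over all genes kept, threshold 0.05. MC38 against skin used 4 libraries, tumors against MC38 or skin 14, tumors alone 12. Ratios were compared with two-sided exact permutation tests, with p as 2 times the smaller tail. This definition replaced a count of absolute differences, which allows smaller p-values for groups of unequal size, after first results had been seen. Alternatives were pseudocounts of 0.1 and 5, no filter, a stricter filter of 20, rescaling to upper quartile or total, no trend, all 16 libraries, edgeR 4.0.16 and DESeq2 1.42.0 on the recovered reads, a replicate block and leaving out each library. Named genes were the 10 members, 3 pathway lists, 9 marker lists, Ifng, Rag1 and the 5 genes most like the members. Members and lists were chosen with earlier results of these data known. A gene of the transcription factor list is not reported here. The tests were also run on simulated reads whose spread was preset, not taken from these data, so that check does not give their error rates here. The labels do not say whether replicates are separate animals or cultures, so p-values measure only the spread between these samples, which may be technical. No 2 replicates agreed within sampling noise (chi-square per degree of freedom 8.42 to 87.2). Gene positions are from GENCODE on GRCm38, the same build as mm10, and promoters from RefSeq.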

Additional observations from a re-analysis of the deposited data

How the results depend on the processing

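The 10 calls against MC38 held in both hosts under each of the alternatives except for Tap2 without an MC38 library, and the count of 6 genes higher in WT than in RAG1 tumors was 6 with each tumor left out and 5 without the filter or without the trend. The 9 counts that moved over 1.5 times under another setting were as follows. Against skin, the members higher in WT tumors became 4 after rescaling to the upper quartile and 5 to the total, and the members lower became 0 in both and 2 with the replicate block. Of the 16259 genes tested there, 3708 were higher in the main fit, 5081 after rescaling to the upper quartile and 5502 to the total. Lower were 5554, 4505 and 4173, and 5468 with the replicate block. Between hosts at day 23, 1 member was higher without the trend and 7 in DESeq2. DESeq2 called 1 member lower at day 46 in WT tumors and 2 higher at day 23 in RAG1 tumors. Without 1 library each, members called higher at day 23 ranged from 0 to 3, those higher than skin from 1 to 3, those lower than skin from 0 to 2, and those higher in MC38 than in skin from 0 to 1.

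Signs turned only for members that were not called. For the difference of time changes, Psmb8 was 0.0038 (upper quartile), 0.12 (total), 0.054 (edgeR) and 0.048 (DESeq2), and with 1 library left out it ranged to 0.34 from -0.46, and Psmb10 from -0.38 to 0.31. Against skin, H2-K1 in WT tumors was 0.21, 0.30 and 0.074 (upper quartile, total, edgeR) and ranged from -0.40 to 0.22 with a library left out, Tapbp was -0.0505 with the replicate block and ranged from -0.098 to 0.25, and Tap2 ranged from -0.30 to 0.58. Between RAG1 days, Tap1 was -0.076 and Tapbp -0.034 after rescaling to the total, with ranges of -0.11 to 0.33 and -0.11 to 0.18. Psmb10 ranged from -0.11 to 0.22 between the hosts, from -0.011 to 0.40 at day 23, from -0.54 to 0.15 between WT days and from -0.28 to 0.52 between MC38 and skin. The cause was not tested. Over all genes, higher and lower calls between hosts were 84 and 21 in limma, 41 and 7 without the trend, 67 and 9 without the filter and 194 and 89 in DESeq2. At day 23 they were 34 and 7, then 12 and 3, 18 and 4, and 158 and 81, with 17 and 5 in edgeR. DESeq2 called 25 and 16 between WT days, 90 and 116 between RAG1 days and 36 and 22 for the difference of time changes, where all 16 libraries gave 3 higher, against 0 each in limma. Rescaling to the total moved the median of all genes between RAG1 days to -0.13, and against skin to 0.12 (upper quartile) or 0.21 from -0.18.

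Of the ratios, Psmb8 over Psmb5 between hosts ranged from 0.54 to 0.93 and had an unadjusted p under 0.05 without replicate 1 of WT day 46 or of RAG1 day 13, Psmb10 over Psmb7 from -0.0094 to 0.31, and in MC38 against skin from -0.71 to 0.059. Replicate numbers showed no clear pairing of the tumors. Same-numbered tumors correlated at -0.24 to 0.25, with 4 of 18 pairs over 0.1. Differently numbered tumors correlated at -0.21 to 0.20, with 7 of 36 pairs over 0.1. Values were centred within each small group, so this check cannot exclude a pairing. With the replicate block 6 members were higher in WT than in RAG1 tumors, 3 at day 23 and 9 lower in MC38 than in skin. Over all genes these counts were 89 and 33 of 14746, and 7079 of 16780. Limits are the 2 libraries each of MC38 and skin, bulk tissue, days that differ between hosts, and the 25 reads at the lowest for Nlrc5 in MC38.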

Other observations

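The remaining marker lists were named for other cell types, but they do not mark host cells alone. MC38 itself held 4955 to 5649 normalized counts of the 5 fibroblast markers together and 308 to 320 of the 5 keratinocyte markers. The 5 B cell markers summed to 5.56 to 30.5 normalized counts in RAG1 tumors and 82.4 to 292 in WT tumors, and of the 2 tested Igkc was higher in WT tumors (log2 fold change 6.80 ± 0.44, limma adjusted p = 7.6e-07) and Cd79b stood at 0.12. The 5 NK cell markers summed to 190 to 235 in MC38, where 4 of the 5 had no read and Eomes, a transcription factor, held the whole sum, and to 106 to 190 in tumors. Of the 3 tested, Eomes was lower in tumors than in MC38 in both hosts, Klrk1 was higher in both and Klre1 in WT tumors (limma). Klrk1, an activating receptor of NK and T cells, had 0 reads in MC38, 1.31 to 16.05 normalized counts in RAG1 tumors and 13.7 to 84.1 in WT tumors. None of the 3 was called between the hosts, and 1, Klrk1, had an unadjusted p under 0.05 (log2 fold change 1.78 ± 0.47, adjusted p = 0.124). Of the 5 fibroblast markers 4 were higher in tumors than in MC38 in each host, and all 5 endothelial markers were. Neither list held a gene called between the hosts, with 1 fibroblast marker and 0 endothelial markers at an unadjusted p under 0.05. Keratinocyte markers summed to 1858 at most in a tumor, the second WT tumor of day 23, and to 229.7 to 479 in all but the WT tumors of day 23, and 0 of the 5 were called between the hosts (1 at an unadjusted p under 0.05). The colon epithelial list reached 30.5 at most in a tumor.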
